A study of Homo sapiens with 14 samples.

Results

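RNA-Seq splice events of HEK293T cells were compared between SF3B1-K700E (MT) and SF3B1-WT cells. HEK293T is an established human embryonic kidney cell line. The MT line carries the K700E change at the endogenous SF3B1 locus, and the WT line is its isogenic K700K counterpart. Total RNA of 3 WT and 3 MT libraries was sequenced, and neither line received a further treatment according to the labels. Whether a line is 1 clone, and whether libraries of a group came from separate cultures, is not given in the sources used here, so the spread between libraries, and every p-value below, may be technical. A splice event entered when the average of its WT and MT mean junction reads was at least 10. This held for 94061 of 114349 events, in 10404 genes, and 83581 events in 10204 genes had a level in all 6 libraries that was not the same throughout and were tested.

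The measurement is the inclusion level, a fraction from 0 to 1, made from junction reads scaled by the lengths of both forms. For an alternative 3′ splice site (A3SS) the included form is the longer one, which begins at the upstream of both acceptor sites. For an alternative 5′ splice site (A5SS) it is also the longer form, for a skipped exon (SE) the form with the exon, and for a retained intron (RI) the unspliced form. For mutually exclusive exons (MXE) the included form held the upstream exon of the transcript, since its reads equalled those of the cassette event of that exon in 5404 of 5404 events where both were listed. Each event comes with 6 MT values although 3 MT samples are labelled. Only the 3 MT values with a column of their own entered the tests, and MT 1, MT 2 and MT 3 are the order of those columns. The other 3 served to check direction. Over the 61304 tested events whose reads could be matched to each library, WT libraries held 4328282 to 4952166 and MT libraries 3983946 to 5336590 junction reads. The table has no reads over the mutated codon of SF3B1 and no gene levels, so the genotype could not be checked here. Of 9 genes known from this line, EYA1 had 22 events with at least 10 reads and the other 8 had 0, as had the B-cell genes CD79A, CD79B, MS4A1 and PAX5, which mark the other cell line of the series, so splice events did not check the label of the line.

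SF3B1 is a core protein of the U2 small nuclear ribonucleoprotein, which pairs with the branch site of an intron and so sets which AG downstream becomes the 3′ splice site. The K700E substitution lies in the repeat domain of the protein near this contact and is recurrent in myelodysplastic syndromes and chronic lymphocytic leukemia. Cells with this substitution are known to use cryptic 3′ splice sites, often a short way upstream of the usual AG.

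Acceptor sites of events past the threshold, chosen to show close and distant pairs, are given here, each as 25 intronic bases, the AG in capitals and the first 3 bases of the exon, 5′ to 3′ on the strand of the gene in GRCh38/hg38. The first 5 pairs are close neighbours in which the upstream AG gained use in MT cells.
SERBP1 upstream site, more used in MT (chr1:67424975-67425004, minus strand): agtattatgttaactcagttttgttAGttc
SERBP1 downstream site (chr1:67424957-67424986, minus strand): ttttgttagttctttttcacattacAGtgg
DLST upstream site, more used in MT (chr14:74889851-74889880, plus strand): gctccccgctaacaggtagccttgtAGcct
DLST downstream site (chr14:74889870-74889899, plus strand): ccttgtagcctttgattgtcttttcAGctg
ZDHHC16 upstream site, more used in MT (chr10:97455612-97455641, plus strand): tccagccctctctaaactacccaccAGtct
ZDHHC16 downstream site (chr10:97455633-97455662, plus strand): caccagtcttcgcccctcttttcttAGttc
ERGIC3 middle site, more used in MT (chr20:35556928-35556957, plus strand): caggtcctagccctagccctggcccAGgct
ERGIC3 downstream site (chr20:35556946-35556975, plus strand): ctggcccaggctcccctcccaccccAGgta
ANKHD1 middle site, more used in MT (chr5:140438467-140438496, plus strand): gcaaattgtcaactgctgatggtaaAGctt
ANKHD1 downstream site (chr5:140438476-140438505, plus strand): caactgctgatggtaaagcttttgcAGatc
In the next pairs the sites lie farther apart and the downstream AG gained use.
DVL2 upstream site (chr17:7227781-7227810, minus strand): gtcattttggtgccatctttgtcccAGatg
DVL2 downstream site, more used in MT (chr17:7227709-7227738, minus strand): ccgcggctctgactggcaccttcccAGcct
CRNDE upstream site (chr16:54920408-54920437, minus strand): taataattatcttatttaaatcaatAGgta
CRNDE downstream site, more used in MT (chr16:54920325-54920354, minus strand): tcattgtgagtgctagttctcttgtAGgat
The last ones are an acceptor of COASY that 3 events share, and the acceptor of a BRD9 exon that MT cells included.
COASY shared site, more used in MT (chr17:42562329-42562358, plus strand): agccctgtgacaagggttcctgtccAGttt
BRD9 exon, more used in MT (chr5:869402-869431, minus strand): ggatatattttgagataaaatactcAGttt

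The sites used more held fewer pyrimidines at the median than those used less. In the 22 bases from 25 to 4 before the exon, the 10 different acceptors that gained use in A3SS events past the threshold below had a median of 59.1% pyrimidines (range 45.5% to 68.2%) and 20.5% adenine. The 11 acceptors that lost use had 72.7% pyrimidines (range 50.0% to 86.4%) and 13.6% adenine. All 4712 upstream acceptors of tested A3SS events had medians of 68.2% and 13.6%, and all 4667 downstream acceptors had the same medians. For pairs 10 to 30 bases apart the medians were 63.6% and 18.2% for the 926 upstream and the 933 downstream acceptors. The nearest AG upstream of an acceptor lay a median of 11 bases away for the sites gained and 19 for those lost. Over all tested A3SS events this median was 26 for upstream and 20 for downstream acceptors. For pairs 10 to 30 bases apart it was 22 and 19. For a downstream acceptor the nearest AG can be that of its upstream partner. These are descriptions of few sites, and neighbouring sites share bases, as the 9 bases between the ANKHD1 acceptors show.

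Across all types, 26 events in 19 genes, 0.0311% of those tested, passed the threshold, which was set at a limma Benjamini-Hochberg adjusted p of 0.05 together with a difference of more than 0.1 between mean inclusion levels. Inclusion rose in 11 (0.0132%) and fell in 15 (0.0179%). Differences were between 0.107 and 0.665 in size, mean reads per event between 15.5 and 3562, and in all 26 every MT library lay beyond every WT library. The median SD over these events was 0.0289 among WT and 0.0699 among MT libraries. With no size minimum, 31 events passed, and 1509 passed an unadjusted p under 0.05 with a difference above 0.1. The number of events past the threshold depended on single libraries: it was 10, 12 and 6 without WT 1, WT 2 and WT 3, and 3, 4 and 13 without MT 1, MT 2 and MT 3. A quasi-binomial test on the reads of 61304 events called 37, with 24 rises and 13 falls, and limma with robust moderation called 63, with 25 and 38. With a logit in place of the arcsine, or with no trend of the variance, limma called 0 events, and 1007 and 1604 had an unadjusted p under 0.05 with a difference above 0.1.

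**Figure D1:**
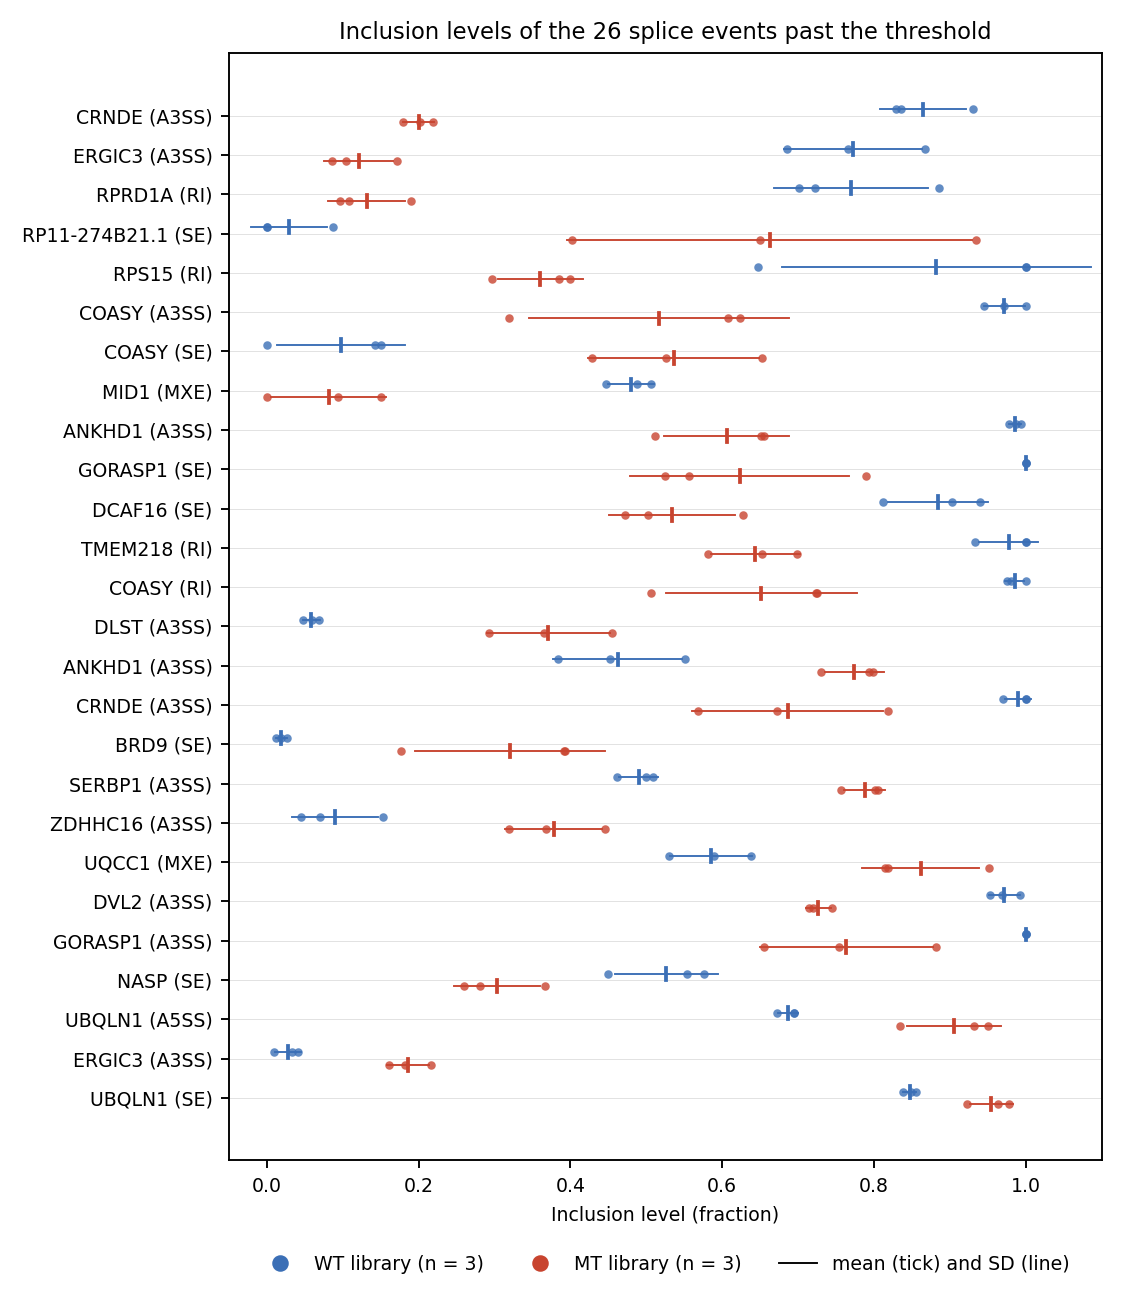
Inclusion level, a fraction, of the 26 splice events past the threshold, 1 event per line, ordered by the size of the difference. Blue points are the 3 WT and red points the 3 MT libraries, ticks are means and lines reach 1 SD to each side, and in every event the 2 colors do not overlap.

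Alternative 3′ splice sites held the highest share of events past the threshold, though no test compared the types. Of the 26 events, 12 were A3SS (0.224% of 5351 tested), 7 SE (0.0125% of 55825), 4 RI (0.114% of 3514), 2 MXE (0.0131% of 15311) and 1 A5SS (0.0279% of 3580). The A3SS count was 7 and 5 without WT 1 and WT 3, and 3, 3 and 7 without MT 1, MT 2 and MT 3. The quasi-binomial test called 24 A3SS, 9 SE, 2 RI and 2 MXE events, and robust moderation called 23 A3SS, 26 SE, 8 RI, 3 MXE and 3 A5SS events. Of the A3SS events, 15 and 13 were rises in these tests. A wider description, with no test, counts events in which every MT level lay beyond every WT level and the means differed by more than 0.1. There were 1443 such separated events (1.73%) in 1060 genes, 626 with higher (0.749%) and 817 with lower inclusion (0.977%) in MT cells. Inclusion was higher in 1.91% and lower in 1.59% of A3SS, in 0.939% and 2.08% of RI, in 0.81% and 1.4% of A5SS, in 1.08% and 1.23% of MXE, and in 0.53% and 0.752% of SE events. Among the 5 types, the share with higher inclusion exceeded the share with lower inclusion for A3SS alone, and lower inclusion was most frequent in RI. The median difference was between −0.0023 and −0.0003 in each type, and the median size of the difference over all tested events, whatever its sign, was 0.0137.

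Separated A3SS events were unevenly spread over the distance between both acceptors. For pairs 10 to 30 bases apart, 48 of 997 events had higher use of the upstream site in every MT library (4.81%) and 14 lower use (1.4%). For pairs 31 to 100 bases apart the counts were 27 (1.56%) and 31 (1.79%) of 1733, and beyond 100 bases 10 (0.659%) and 28 (1.84%) of 1518. Pairs up to 3 bases apart had 15 (2.23%) and 9 (1.34%) of 672, and pairs 4 to 9 bases apart 2 (0.464%) and 3 (0.696%) of 431. Higher use of the upstream site in MT cells was thus the more frequent direction at 10 to 30 and at up to 3 bases, and lower use the more frequent one beyond 100 bases, a description with no test.

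**Figure D2:**
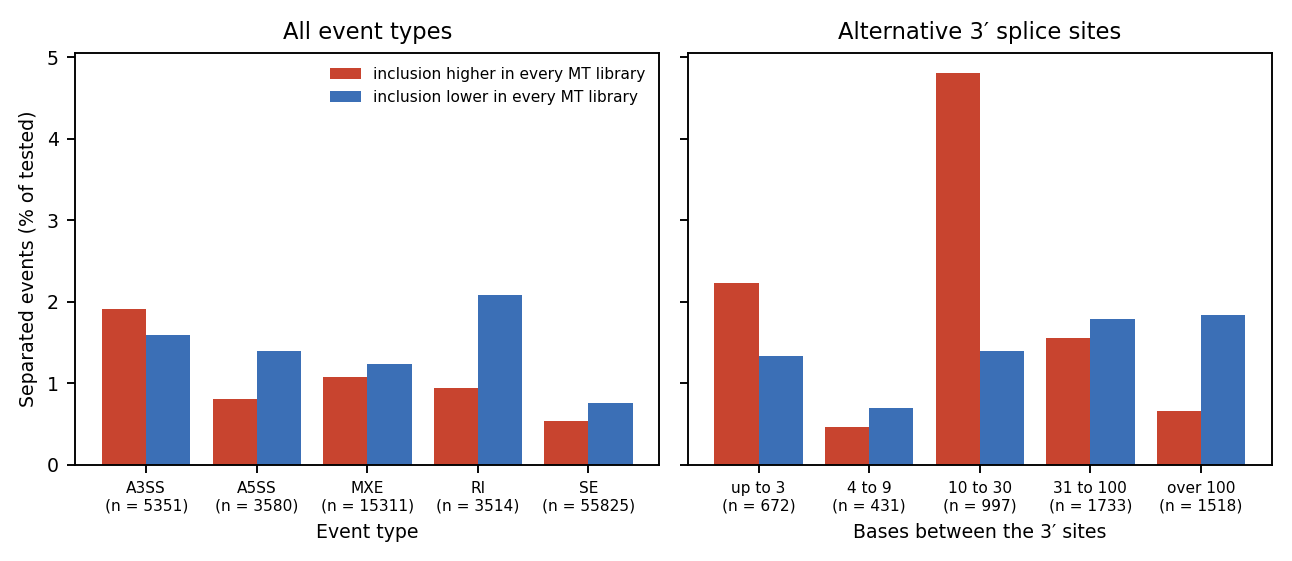
Percent of tested events in which every MT library lay above (red) or below (blue) every WT library with means more than 0.1 apart, by event type (left) and, for alternative 3′ splice sites, by the number of bases between both sites (right), with the number of tested events under each pair of bars. The tallest bar, 4.81%, is higher use of the upstream site at 10 to 30 bases.

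**Figure D3:**
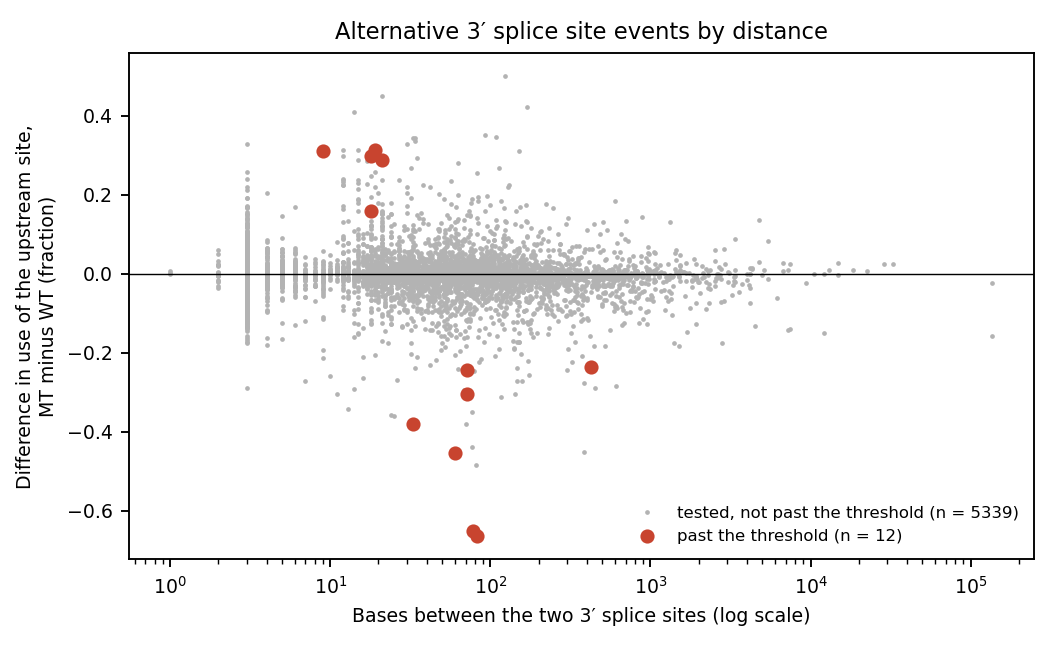
Difference in use of the upstream 3′ splice site (MT minus WT mean, a fraction) against the number of bases between both sites on a log scale, 1 point per tested alternative 3′ splice site event. The 5 events past the threshold with a rise sit at 9 to 21 bases and the 7 with a fall at 33 to 423 bases.

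The upstream acceptor gained use in SERBP1, DLST, ZDHHC16, ERGIC3 and ANKHD1. SERBP1 (ENSG00000142864.14) encodes an mRNA-binding protein that associates with ribosomes. At 3562 reads it was the deepest of the 26 events, and its 18 coding bases (chr1:67424960-67424977) were included at 0.461, 0.5 and 0.509 in WT and at 0.801, 0.757 and 0.805 in MT libraries. The lowest MT level was therefore well above the highest WT level, and the difference was 0.298 (SE 0.0213, limma adjusted p = 6.76e-10). The 3 listed MT values without a column were 0.776, 0.780 and 0.800.

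DLST (ENSG00000119689.14) encodes the succinyltransferase of the 2-oxoglutarate dehydrogenase complex of the tricarboxylic acid cycle. Its upstream acceptor, 19 bases ahead of the usual one, was used at 0.047, 0.069 and 0.059 in WT and at 0.293, 0.455 and 0.365 in MT libraries. The site was close to unused in each WT library and present in each MT library, a difference of 0.313 (SE 0.0473, limma adjusted p = 5.91e-05, 236 reads). ZDHHC16 (ENSG00000171307.18), a palmitoyltransferase, had an upstream acceptor at 21 bases with levels of 0.070, 0.045 and 0.153 in WT against 0.446, 0.368 and 0.319 in MT libraries. All 3 MT libraries lay above the highest WT library, WT 3, and the difference was 0.288 (SE 0.0493, limma adjusted p = 0.0416, 86.3 reads).

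ERGIC3 (ENSG00000125991.19), a protein of transport between endoplasmic reticulum and Golgi, has 3 neighbouring acceptors in the table, and the middle one gained use against both others. Against the site 18 bases downstream, the middle site was used at 0.009, 0.041 and 0.033 in WT and at 0.216, 0.161 and 0.182 in MT libraries (difference 0.159, SE 0.0187, limma adjusted p = 0.000963, 333 reads). Against the site 78 bases upstream, the upstream form fell from 0.685, 0.766 and 0.867 in WT to 0.086, 0.104 and 0.172 in MT libraries (difference −0.652, SE 0.0588, limma adjusted p = 0.000373). The groups were far apart in both events, but the second had 10.7 mean reads in WT against 72.2 in MT cells, so its WT levels rest on few reads.

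ANKHD1 (ENSG00000131503.20), a large protein with ankyrin repeats and a KH domain, showed the same arrangement of 3 acceptors. Against the site 9 bases downstream, the longer form from the middle site had levels of 0.452, 0.551 and 0.383 in WT. In MT libraries its levels were 0.794, 0.799 and 0.730 (difference 0.312, SE 0.0536, limma adjusted p = 0.0411, 108 reads). Against the site 33 bases upstream, the upstream form had levels of 0.994, 0.978 and 0.987 in WT and of 0.511, 0.655 and 0.651 in MT libraries (difference −0.381, SE 0.0476, limma adjusted p = 3.37e-07, 232 reads). WT cells thus used the upstream site in nearly all of these junctions, and MT cells in most but not all. With a WT mean of 0.986 from 246 mean reads, this event leaves few WT reads for the middle site. The event with the downstream site nevertheless had a WT mean of 0.462 from 81.7 mean reads. These WT levels do not go together, so 0.462 cannot be read as use of the middle site alone. How the authors' counting gave that level was not tested. Both ANKHD1 events lie where the annotation also has the readthrough gene ANKHD1-EIF4EBP3, and the middle site is shared by both events, as in ERGIC3, so the events of each gene are not independent.

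The downstream acceptor gained use in CRNDE, COASY, DVL2 and GORASP1. CRNDE (ENSG00000245694.9), a long noncoding RNA that is raised in several tumors, had the widest difference of the 26 events. Its upstream site was used at 0.836, 0.829 and 0.930 in WT and at 0.219, 0.202 and 0.179 in MT libraries against a site 83 bases downstream (difference −0.665, SE 0.0346, limma adjusted p = 6.82e-08, 141 reads). The 3 listed MT values without a column were 0.363, 0.363 and 0.398, between the levels of the MT columns and those of WT. Against another site 72 bases downstream the levels were 1, 0.970 and 1 in WT against 0.819, 0.568 and 0.672 in MT libraries (difference −0.304, SE 0.0735, limma adjusted p = 0.000818). Both CRNDE events share the upstream site and are not independent.

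DVL2 (ENSG00000004975.11), a dishevelled protein that relays Wnt signals, used its upstream site at 0.993, 0.969 and 0.953 in WT and at 0.745, 0.720 and 0.715 in MT libraries. The spread within each group was small beside the difference of −0.245 (SE 0.0149, limma adjusted p = 7.24e-05, 231 reads), which moved use to a site 72 bases farther into the exon.

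COASY (ENSG00000068120.14) encodes the enzyme of the last steps of coenzyme A synthesis, and 3 of its 8 tested events passed. All 3 involve the acceptor whose exon begins at base 42562356 of chromosome 17. As an A3SS, the site 60 bases upstream of it was used at 0.945, 0.971 and 1 in WT and at 0.319, 0.624 and 0.608 in MT libraries (difference −0.455, SE 0.1, limma adjusted p = 0.000261). As an RI, the 136 bases before it were retained at 0.975, 0.981 and 1 in WT and at 0.506, 0.723 and 0.725 in MT libraries (difference −0.334, SE 0.0731, limma adjusted p = 4.34e-05). As an SE, the 132-base exon that begins at this acceptor was included at 0.150, 0.143 and 0 in WT and at 0.653, 0.429 and 0.526 in MT libraries (difference 0.438, SE 0.0812, limma adjusted p = 0.0449). The included A3SS and RI forms also hold these 132 bases, so a low SE level does not mean that the bases were absent. The SE event had 25.7 mean reads in WT, against 97.7 for the A3SS and 231 for the RI event. MT 1 stood farthest from WT in each of these events, which share the acceptor and are not independent.

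GORASP1 (ENSG00000114745.13), a protein that stacks Golgi cisternae, was at 1 in every WT library in both of its events. Use of its upstream acceptor against one 423 bases downstream was 0.882, 0.754 and 0.655 in MT libraries (difference −0.236, SE 0.0657, limma adjusted p = 0.0221, 50.6 reads). The 131-base exon that begins at the same upstream acceptor was included at 0.789, 0.556 and 0.524 (difference −0.377, SE 0.0835, limma adjusted p = 0.0411, 22.8 reads). Of the 3 listed MT values without a column, 1 was at 1, the WT level, in each event, and these were the only events of the 26 with a listed value that did not lie beyond WT.

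Among cassette exons, MT cells included an exon of BRD9 and skipped exons of DCAF16 and NASP. BRD9 (ENSG00000028310.17) encodes the bromodomain protein of the noncanonical BAF chromatin remodeling complex. Its 160-base exon (chr5:869245-869404) was included at 0.026, 0.012 and 0.019 in WT and at 0.393, 0.176 and 0.392 in MT libraries. The lowest MT library, MT 2, was still above all WT libraries, and the difference was 0.301 (SE 0.0723, limma adjusted p = 0.0221, 63.5 reads). The listed values without a column, 0.390, 0.452 and 0.423, were near the 2 higher MT libraries.

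DCAF16 (ENSG00000163257.10), a substrate receptor of a CUL4 ubiquitin ligase, included a 119-base exon at 0.903, 0.812 and 0.940 in WT and at 0.628, 0.472 and 0.502 in MT libraries (difference −0.351, SE 0.0611, limma adjusted p = 0.00042, 214 reads). NASP (ENSG00000132780.16), a histone chaperone, included its 1017-base exon at 0.449, 0.554 and 0.576 in WT and at 0.281, 0.367 and 0.260 in MT libraries (difference −0.224, SE 0.0511, limma adjusted p = 0.017, 452 reads). In both genes every MT library fell below every WT library, with the smaller gap in NASP, where WT 1 and MT 2 were the nearest. The noncoding gene RP11-274B21.1 (ENSG00000280828.1) had a 70-base exon at 0, 0.087 and 0 in WT and at 0.935, 0.650 and 0.402 in MT libraries (difference 0.633, SE 0.157, limma adjusted p = 0.0415). At 15.5 reads, from means of 6 in WT and 25 in MT cells, it was the shallowest of the 26 events. No transcript of the reference annotation has either form.

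UBQLN1 (ENSG00000135018.13), a shuttle factor of the proteasome, kept an 84-base exon more often in MT cells. The exon was included at 0.838, 0.855 and 0.849 in WT and at 0.963, 0.978 and 0.923 in MT libraries (difference 0.107, SE 0.0172, limma adjusted p = 0.0352, 481 reads). In an A5SS event that counts the same skipping junction the levels were 0.672, 0.694 and 0.695 in WT against 0.932, 0.950 and 0.834 in MT libraries (difference 0.218, SE 0.0368, limma adjusted p = 0.0134). The WT libraries lay close together in both events, and MT 3 was the MT library nearest to them.

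The 4 retained introns past the threshold were all spliced out more often in MT cells, COASY among them. The retained form need not be an unfinished one: in RPRD1A, TMEM218 and COASY it is annotated in protein-coding transcripts. In RPS15 it is annotated in a retained-intron transcript only. The spliced form is annotated in RPRD1A in a single transcript, of non-stop decay, and in the other genes in protein-coding ones. RPRD1A (ENSG00000141425.17), which binds the C-terminal domain of RNA polymerase II, retained a 1221-base stretch at 0.886, 0.722 and 0.701 in WT and at 0.190, 0.096 and 0.108 in MT libraries (difference −0.638, SE 0.0655, limma adjusted p = 3.07e-06, 111 reads). RPS15 (ENSG00000115268.9), a protein of the small ribosomal subunit, retained 1075 bases at 0.647, 1 and 1 in WT and at 0.296, 0.385 and 0.4 in MT libraries (difference −0.522, SE 0.122, limma adjusted p = 0.0411, 33.5 reads). RPS15 has processed copies in the genome, and how the authors' counting treated reads that match several copies is not given in the sources used here. TMEM218 (ENSG00000150433.9), a transmembrane protein, retained 382 bases at 1, 0.933 and 1 in WT and at 0.698, 0.581 and 0.652 in MT libraries (difference −0.334, SE 0.0407, limma adjusted p = 0.0257, 39.6 reads). Groups were apart in each, with RPRD1A the widest gap and WT 1 of RPS15 the WT library nearest to MT. TMEM218 had 7 separated events among 24 tested, the most of the 19 genes.

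Between mutually exclusive exons, MID1 and UQCC1 moved in opposite directions. MID1 (ENSG00000101871.14), a ubiquitin ligase on microtubules, included the upstream exon (chrX:10566888-10567603) at 0.447, 0.506 and 0.488 in WT and at 0, 0.150 and 0.094 in MT libraries (difference −0.399, SE 0.0471, limma adjusted p = 0.000605, 165 reads). Its mean reads were 285 in WT against 45 in MT cells, and limma with robust moderation did not call this event. UQCC1 (ENSG00000101019.21), an assembly factor of mitochondrial complex III, included the upstream exon (chr20:35347164-35347272) at 0.589, 0.530 and 0.638 in WT and at 0.951, 0.814 and 0.819 in MT libraries (difference 0.276, SE 0.0547, limma adjusted p = 0.0415, 136 reads). WT libraries used both exons of each gene at similar levels, and MT libraries mostly used 1 of them. No annotated transcript has either form of the MID1 event as listed, or the form of the UQCC1 event with the downstream exon.

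The listed MT values without a column gave the same direction for nearly all events. Of 78 such values over the 26 events, 76 lay beyond every WT library on the side of the MT columns, and 24 of the 26 events had all 3 values there. These values are not tied to labelled samples and entered no test.

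The forms gained in MT cells differed in what they do to the reading frame when placed in the reference transcript chosen for the gene by MANE. In DLST the 19 added bases shortened the open frame from 453 to 106 residues, with the new stop 925 bases before the last exon junction, and the only annotated transcript with this acceptor is a nonsense-mediated decay transcript. The BRD9 exon shortened the frame from 597 to 553 residues with a stop 191 bases before the last junction, and it too is annotated in a single transcript, of nonsense-mediated decay. In GORASP1 the annotation and the MANE frame differed. The downstream acceptor took the MANE frame from 440 to 185 residues with a stop 380 bases before the last junction, but both annotated transcripts with that acceptor are protein coding. The 131-base exon that MT cells skipped more often is in 5 nonsense-mediated decay transcripts, and the 2 transcripts without it are protein coding. In one of these, adding the exon shortened the frame from 285 to 221 residues and placed the stop 69 bases before the last junction. A stop ahead of the last exon junction is, as background, the arrangement by which cells recognize transcripts for nonsense-mediated decay.

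In the MANE transcripts of 8 further genes the frame ran to its usual end with both forms. SERBP1 had 393 residues with the gained form and 387 without, ERGIC3 389 and 383, ZDHHC16 384 and 377, and UBQLN1 589 and 561. DVL2 went from 736 to 712 residues, ANKHD1 from 2542 to 2531 with the middle site in place of the upstream one, and NASP from 788 to 449 without its exon. The DCAF16 exon lies outside the coding span, and its protein of 216 residues was the same with and without it. No annotated transcript has the skipping form of the DCAF16 event as listed. No frame was worked out for RPRD1A, RPS15, TMEM218, MID1, UQCC1 and the A3SS and RI events of COASY. No protein was measured.

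The study followed 13 genes with altered splicing by qPCR, and an A3SS event was tested here for 9 of them. SERBP1 and DLST passed the threshold, as given above. For DYNLL1, MTERF2, TMEM14C and ORAI2 no A3SS event was tested. Because the study picked these genes partly with data that include this cell line, their direction is not independent of it. Each of the 9 events also has the coordinates of an event that the study lists as altered in Nalm-6, the other line of the series. That choice favors changed events, so the shared direction below is a description. The mean was higher in MT cells in each of the 9, and groups overlapped in STAU1 and TGFBR1 alone.

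HLTF (ENSG00000071794.15), a helicase-like factor of DNA damage tolerance, used an upstream site 12 bases ahead at 0.127, 0.142 and 0.150 in WT and at 0.401, 0.397 and 0.319 in MT libraries. The groups were apart by more than the range within either one, but the difference of 0.233 (SE 0.0275, 137 reads) missed the threshold at a limma adjusted p of 0.0542. TRIM37 (ENSG00000108395.13), a ubiquitin ligase that limits centriole assembly, had a site 27 bases ahead at 0, 0.069 and 0.075 in WT and at 0.275, 0.285 and 0.294 in MT libraries. Its MT libraries lay close together and far above WT, and the difference of 0.237 (SE 0.0247, 74.4 reads) had a limma adjusted p of 0.0794. With robust moderation, limma gave adjusted p-values of 0.00552 for HLTF and 0.00193 for TRIM37, and the quasi-binomial test gave 0.00664 for both.

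EHMT1 (ENSG00000181090.19), a histone H3 lysine methyltransferase, was at 0.294, 0.301 and 0.191 in WT and at 0.415, 0.538 and 0.548 in MT libraries for a site 21 bases ahead (difference 0.238, SE 0.0556, limma adjusted p = 0.343, quasi-binomial adjusted p = 0.0412). TGFBR1 (ENSG00000106799.12), a TGF-β receptor kinase, was at 0.068, 0.170 and 0.085 in WT and at 0.134, 0.333 and 0.351 in MT libraries for a site 12 bases ahead (difference 0.165, SE 0.0764, limma adjusted p = 0.856). MT 1 of TGFBR1 lay below WT 2, so its groups overlapped, while those of EHMT1 did not.

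Of the RNA-binding genes of that panel, STAU1, which binds double-stranded RNA, was at 0.061, 0.131 and 0.075 in WT and at 0.126, 0.304 and 0.205 in MT libraries (limma adjusted p = 0.596). SKIV2L, the helicase of the Ski complex of RNA decay, was at 0.079, 0.214 and 0.16 in WT and at 0.295, 0.478 and 0.524 in MT libraries (limma adjusted p = 0.656, quasi-binomial adjusted p = 0.0481). THOC1, a subunit of the THO complex of mRNA export, was at 0.049, 0.142 and 0.172 in WT and at 0.282, 0.283 and 0.250 in MT libraries (limma adjusted p = 0.665). MT levels were higher in each pair of groups, without overlap in SKIV2L and THOC1, and none passed the limma threshold. In the MANE transcript, the SKIV2L form brought a stop 507 bases before the last junction, at 1031 in place of 1246 residues, whereas the STAU1, THOC1, HLTF, TGFBR1 and TRIM37 forms kept the frame and added 4 to 9 residues.

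**Figure D4:**
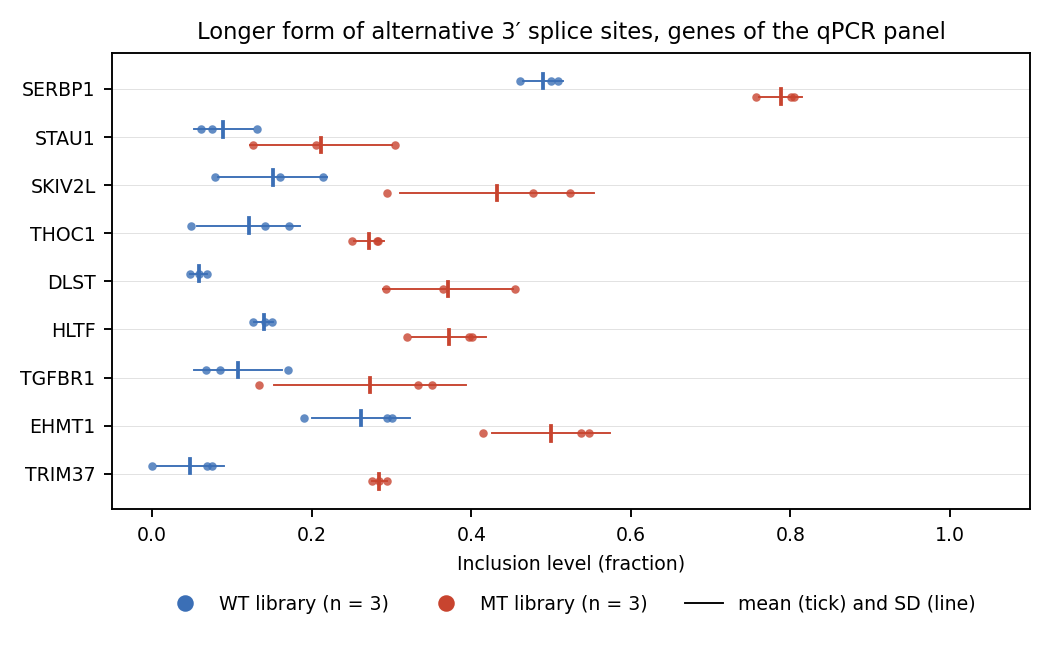
Inclusion level of the longer form, a fraction, of alternative 3′ splice site events in the 9 genes of the study's qPCR panel that had one, with blue points for the 3 WT and red points for the 3 MT libraries, ticks for means and lines for 1 SD to each side. MT means are to the right of WT means in all 9 genes, and only STAU1 and TGFBR1 have overlapping libraries. The event shown for each gene is one that the study lists as altered in Nalm-6 cells.

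Lists of genes put these events in context. Of 34 listed symbols of genes known for altered splicing in SF3B1-mutant cells, 31 had tested events, and 15 of their 441 events passed (3.4%, against 0.0311% of all), 8 rises and 7 falls in 10 genes. Separated events were 10.2% of the list against 1.73% of all, while the median difference was −0.003 in the list and −0.002 over all events. The list was drawn up with earlier results of these data known, so its share is a description.

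The R-loop list, genes that prevent or resolve DNA:RNA hybrids, held 39 of 40 symbols with tested events. SERBP1 was its only event past the limma threshold out of 516 (0.194%, against 0.0311% of all). The quasi-binomial test, which could not include SERBP1, called 1 event of this list, in SKIV2L (adjusted p = 0.0481), and 37 of 61304 events over all. Separated events were 1.36% of that list, below the 1.73% over all events. The list of the U2 particle and branch site recognition, with 246 events in 25 genes, held 0 events past the limma threshold and 5 with an unadjusted p under 0.05 and a difference above 0.1 (2.03%, against 1.81% of all). Robust moderation also gave 0 (63 of 83581 over all events). The quasi-binomial test on reads gave 2 (37 of 61304 over all), both in SUGP1, a G-patch protein that binds SF3B1. The deeper SUGP1 event had upstream use of 0.143, 0.136 and 0.281 in WT and of 0.046, 0.030 and 0.033 in MT libraries (limma adjusted p = 0.426, quasi-binomial adjusted p = 0.0157). MT libraries were all below WT, with WT 3 the farthest from them, and the form gained in MT cells lies 196 bases farther downstream.

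The remaining lists, of mRNA decay, DNA damage response, kinetochore and mitosis, and NF-κB signaling, each held 0 events past the limma threshold, against 0.0311% of all. Events with an unadjusted p under 0.05 and a difference above 0.1 numbered 7 of 623 (1.12%), 8 of 751 (1.07%), 11 of 663 (1.66%) and 6 of 213 (2.82%) in that order, against 1.81% over all events. Separated events were 1.44%, 1.2%, 1.36% and 2.35% of each list, against 1.73% over all events. With robust moderation limma called 0, 1 (HLTF), 1 (TRIM37) and 1 (MAP3K7), and the quasi-binomial test called 1 (SKIV2L), 1 (HLTF), 1 (TRIM37) and 0. Over all events, robust moderation called 63 of 83581 and the quasi-binomial test 37 of 61304, so these single calls are descriptions.

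The separated event with most reads in each of those lists was named as an example, and none of the 4 passed the threshold. EXOSC9, a subunit of the RNA exosome, included a 51-base exon at 0.094, 0.105 and 0.123 in WT and at 0.217, 0.233 and 0.197 in MT libraries (limma adjusted p = 0.842). FANCD2, of the Fanconi anemia repair pathway, had an upstream exclusive exon at 0.537, 0.538 and 0.519 in WT and at 0.553, 0.610 and 0.748 in MT libraries (limma adjusted p = 0.856). KNL1, a kinetochore scaffold, had one at 0.412, 0.432 and 0.542 in WT and at 0.554, 0.549 and 0.634 in MT libraries (limma adjusted p = 0.856). In these 3 genes the gap between groups was narrow, widest in EXOSC9. The listed MT values of KNL1 without a column were 0.444, 0.523 and 0.559, of which only 0.559 lay beyond the highest WT level, 0.542. Those of EXOSC9 and FANCD2 all lay beyond WT. MAP3K7, the TAK1 kinase of the NF-κB pathway, had its upstream exclusive exon at 0.466, 0.390 and 0.303 in WT and at 0.206, 0.149 and 0.136 in MT libraries, a difference of −0.223 (SE 0.0518, limma adjusted p = 0.214). No annotated transcript has either form of the FANCD2 and MAP3K7 events as listed, or the KNL1 form with the upstream exon.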

How the data were processed

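RNA-Seq splice events of 3 WT and 3 MT HEK293T libraries were analysed, grouped by the genotype in the labels. The kit was stranded, the processing notes name STAR, StringTie and GRCh38/hg38, and Methods name the rMATS model. The deposited inclusion level is a fraction with 3 decimals that the authors made from junction reads per length of each form. The deposited mean reads per group are a coverage signal that the authors did not divide by depth, and the MT mean covers all 6 listed values. The authors' p-values, adjusted p-values and differences hold their own comparison and were not used, nor were peak files of the other cell line.

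Events with a mean of at least 10 reads, a level in all 6 libraries (missing in 56) and some variation (absent in 10424) were compared by limma 3.58.1 in R 4.3.3. Levels were arcsine-square-root transformed, the prior variance followed log mean reads, no covariate entered, and Benjamini-Hochberg adjustment ran over all events. The printed difference is the MT minus the WT mean, with an SE from both SDs. An alternative quasi-binomial test used reads where they matched every level within 0.001 (73.3% of tested events, SERBP1 not among them), since some read lists are run together. The median event had 82.4 reads. An exact permutation test of 3 against 3 libraries cannot go below 0.1. The fit was tested on simulated data.

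Events past the threshold, A3SS events of the study's qPCR genes and, for each list without one past the threshold, the separated event with most reads were named. For the qPCR genes the event was matched by coordinates to the study's Nalm-6 list. Members, lists and tests were chosen with earlier results of these data known. Forms were matched to GENCODE transcripts of the same build, where 99.1% of 10702 A3SS acceptors follow an AG, and sequences were read from that genome.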

Additional observations from a re-analysis of the deposited data

How the results depend on the processing

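No event named above changed direction under any alternative, but this was largely fixed in advance. The difference is taken from the same mean levels in every fit with all 6 libraries. Leaving out 1 library cannot reverse a separated event, and of the named events only STAU1 and TGFBR1 were not separated. Over all named events and the alternatives, 346 comparisons stayed on the same side of the threshold, 190 lost the call and 8 gained it. The 346 include events that were not past the threshold in the main fit and stayed so. All 190 losses fell on the 26 events, for which more comparisons lost the call than kept it. Against 26 events, 11 rises, 15 falls and 12 A3SS events, limma with a logit, or with no trend of the variance, left 0, 0, 0 and 0. Robust moderation gave 63, 25, 38 and 23, with 25 of the 26 among them. The quasi-binomial test on 61304 events with matched reads gave 24 rises and 24 A3SS events among 37, of which 14 were among the 26. On the same 61304 events the limma comparison, an alternative chosen after seeing the data, gave 7 rises among 21, so the rises differ between the tests on the same events. The limma count of rises was 7 with no read minimum, and 6, among 17 events, with a minimum of 50 reads. Leaving out 1 library at a time gave 3 to 13 events, 1 to 4 rises, 2 to 9 falls and 3 to 9 A3SS events. The first CRNDE event, the upstream ANKHD1 event and SERBP1 were called in 6 of 6 of these fits. Both GORASP1 events, the other ANKHD1 event, the exon events of UBQLN1 and COASY, MID1 and BRD9 were called in 0 of 6. So were ZDHHC16, UQCC1, TMEM218, NASP and RP11-274B21.1. Separated events numbered 428 with a difference above 0.2 and 432 with a minimum of 50 reads. The cause of the changes was not tested, apart from the smaller number of libraries or events that some alternatives hold by construction. Deviations of same-numbered WT and MT columns correlated at 0.18, 0.179 and 0.043, and those of differently numbered columns at −0.196 to 0.035. For each WT column the same-numbered MT column had the highest value. What the number stands for is not given, and a shared batch was not tested. With the number as a replicate block, 12 events passed, 2 of them rises, all among the 26. Depth limits the shallow events, and counting error alone was not separated from the spread between libraries.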
